A study of Homo sapiens with 4 samples.

Results

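This account follows 2 of the 2637 RNAs in a GRID-seq table of chromatin contacts, BTRC and SUGCT. They were picked by their RNA symbol because they had many more listed contacts in cells with the RUNX1 R320* change than in wild-type cells. In GRID-seq, RNA is joined to the DNA lying next to it in fixed cells, and sequencing the joined pieces tells which RNA lay where in the genome. The cells were K562, a human leukaemia line with the BCR-ABL1 fusion, carrying either wild-type RUNX1 (WT) or RUNX1 R320*, a truncating nonsense change. There were 4 libraries, 2 per genotype. The labels name no clone, no delivery method and no treatment, and do not say whether libraries came from separate cultures.

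RUNX1 is a DNA-binding factor of blood development that works at enhancers and promoters together with its partner CBFB. BTRC encodes a substrate receptor of the SCF ubiquitin ligase, which marks phosphorylated proteins such as beta-catenin and the NF-kappaB inhibitor for degradation. SUGCT encodes a mitochondrial enzyme that moves coenzyme A from succinyl-CoA to glutarate, a product of lysine breakdown. The RNA of a gene usually lies on chromatin near its own gene. Contacts with another chromosome (trans) are best known for abundant nuclear noncoding RNAs such as MALAT1 and NEAT1.

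The table gives 1 score per genotype for each connection, a connection being an RNA paired with an active enhancer or promoter. A listed score was above 1.2 in every case and any other was 0, which is read here as "not listed" and never as absence of contact. With 1 value per genotype there is no replicate spread and no test of genotype. Sequencing depth is unknown, SDs describe the spread over connections, and coordinates are hg38. The table held 115357 connections. Of the 16 erythroid and K562 marker genes looked for, 8 were present as RNAs, among them the embryonic and fetal globins HBE1 and HBG2; 7 of the 8 had more connections in R320* (median log2 ratio 0.34; SLC25A37, a mitochondrial iron carrier gene, had 23 and 34). Over the 2137 RNAs listed in both genotypes, 58.2% gained in number and 33.6% lost, with a median of 0.09. Of 5 lymphoid markers 0 were present, and of 5 non-blood markers 1 (RBFOX3, 1 connection in each genotype).

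Some of the gained contacts reached gene promoters, and 5 promoter windows from such elements are printed here, each covering only part of its element. HBP1 (chr7:107168753-107169052, plus strand) and YDJC (chr22:21629973-21630272, minus strand) lie in the contacted promoter elements with the highest R320* scores that hold a RefSeq promoter, for BTRC and SUGCT RNA respectively. RGS14 (chr5:177357674-177357973, plus strand), contacted by BTRC RNA, and ETV1 (chr7:13991376-13991675, minus strand) and CCDC116 (chr22:21632510-21632809, plus strand), contacted by SUGCT RNA, each hold the RUNX core motif. Capitals mark that motif, TGTGGT, or its reverse complement, ACCACA. The sequences are from RefSeq (GRCh38.p14, the hg38 coordinates) and span 300 bases around the gene's start, most of them before it. RGS14, ETV1 and CCDC116 were picked for the motif, so the 5 windows are not typical of the contacted promoters.
HBP1: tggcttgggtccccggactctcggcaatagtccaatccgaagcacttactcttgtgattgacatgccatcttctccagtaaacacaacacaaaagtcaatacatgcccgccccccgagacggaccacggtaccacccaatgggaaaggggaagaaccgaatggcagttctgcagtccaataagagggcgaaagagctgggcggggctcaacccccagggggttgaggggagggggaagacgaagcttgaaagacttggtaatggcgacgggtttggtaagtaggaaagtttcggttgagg
YDJC: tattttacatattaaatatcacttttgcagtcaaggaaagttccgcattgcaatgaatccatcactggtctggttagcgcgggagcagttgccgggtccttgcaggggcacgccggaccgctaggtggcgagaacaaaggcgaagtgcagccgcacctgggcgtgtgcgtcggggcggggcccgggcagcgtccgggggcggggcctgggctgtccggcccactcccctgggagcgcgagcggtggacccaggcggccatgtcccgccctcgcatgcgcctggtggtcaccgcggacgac
RGS14: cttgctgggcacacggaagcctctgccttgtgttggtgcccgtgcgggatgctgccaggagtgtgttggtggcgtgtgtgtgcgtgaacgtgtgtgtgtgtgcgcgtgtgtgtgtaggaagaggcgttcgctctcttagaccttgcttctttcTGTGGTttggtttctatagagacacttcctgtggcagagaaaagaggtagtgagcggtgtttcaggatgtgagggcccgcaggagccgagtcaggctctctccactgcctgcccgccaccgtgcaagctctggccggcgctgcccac
ETV1: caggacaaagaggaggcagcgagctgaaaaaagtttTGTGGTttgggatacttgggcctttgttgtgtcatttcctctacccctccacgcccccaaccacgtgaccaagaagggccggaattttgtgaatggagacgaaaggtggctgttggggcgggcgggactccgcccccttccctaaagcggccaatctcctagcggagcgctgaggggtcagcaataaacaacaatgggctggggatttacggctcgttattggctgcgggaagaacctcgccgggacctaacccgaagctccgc
CCDC116: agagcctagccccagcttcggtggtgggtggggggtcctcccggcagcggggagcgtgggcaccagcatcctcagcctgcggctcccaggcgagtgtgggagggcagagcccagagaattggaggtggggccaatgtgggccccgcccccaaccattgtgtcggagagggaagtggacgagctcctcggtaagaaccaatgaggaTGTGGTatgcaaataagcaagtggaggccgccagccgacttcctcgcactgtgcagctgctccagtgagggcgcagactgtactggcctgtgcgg

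The motif was found in 3 of 48 promoter windows inside the R320*-only promoter elements of BTRC RNA (6.25%) and in 5 of 17 of SUGCT RNA (29.4%). Among all 35116 RefSeq promoter windows, 13.1% held it on either strand. That background takes in promoters whether or not they are active in these cells, so it is not matched to the contacted ones. No test of these shares was made. With only the first window of each gene the shares were 8.57% (3 of 35), 33.3% (4 of 12) and 13.1%. Windows can overlap: those of LSM5 and AVL9 cover the same stretch on opposite strands and share 1 site, so the 5 windows of SUGCT RNA hold 4 sites, in 4 elements. YDJC and CCDC116 also lie in the same element, and the windows are not independent. A RefSeq window lay inside 24 of the 34 R320*-only promoter elements of BTRC RNA and 9 of the 12 of SUGCT RNA.

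BTRC RNA (ENSG00000166167.18, chromosome 10, 101354048 to 101557313) had 7 listed connections in WT and 94 in R320*. All 7 of the WT connections were listed in R320* too, as were 63.2% of WT connections in the whole table. Among 2224 RNAs with at least 7 WT connections, a number set after seeing that of BTRC, 3.1% kept all of them. Most of these RNAs had longer lists, which are less easily kept whole. Neither share is matched to BTRC in list length or kind of contact, so they do not show that its full retention was unusual. The other 87 connections of BTRC RNA were listed in R320* only. SUGCT RNA (ENSG00000175600.15, chromosome 7, 40135005 to 41038816) was listed at 8 elements in WT and 47 in R320*. It kept 7, gained 40 and lost 1. Over all RNAs, 28.5% of connections were listed in R320* only and 26.3% in WT only. These numbers chose the genes and are a description. Restricting to 1293 RNAs found in both genotypes, with 25 or more connections on average, 0.619% had at least 2-fold more connections in R320*. The middle 95% of log2 ratios ran from -0.62 to 0.71. BTRC (3.75) and SUGCT (2.55) ranked first and second, and the next RNA had 1.23. Both reached the mean of 25 only through their R320* numbers, and the ranking uses the numbers that chose them. RNAs with as few connections in WT and little change fall outside this set. Without the minimum, 72 of the 2137 RNAs listed in both genotypes (3.37%) had at least 2-fold more.

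**Figure D1:**
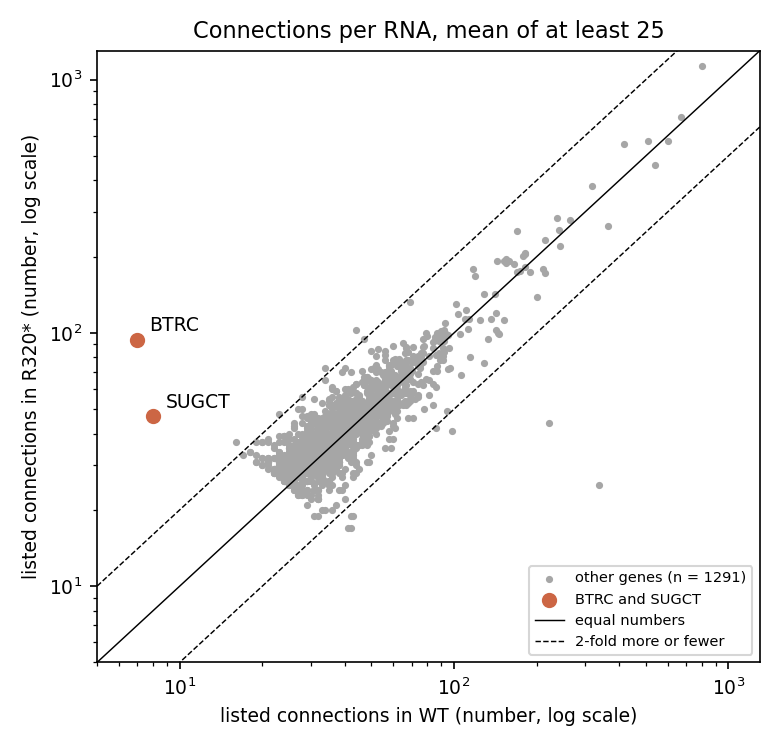
Number of listed connections per RNA in WT (horizontal axis, log scale) and R320* (vertical axis, log scale), 1 point per RNA with a mean of at least 25 connections; lines mark equal numbers and 2-fold more or fewer. BTRC (7 and 94) and SUGCT (8 and 47) lie far above the 2-fold line.

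The kind of contact gained differed between the RNAs. Of the 87 R320*-only contacts of BTRC RNA, 83 were trans and 4 were cis, meaning on the gene's own chromosome but outside the gene. Of the 40 of SUGCT RNA, 34 were cis and 6 trans. Over all RNAs, R320*-only connections were 41.5% of the trans, 26.4% of the cis and 8.65% of the local ones (inside the RNA's own gene). The WT-only shares were 47%, 22.1% and 10.3%; BTRC and SUGCT RNA each had 1 local connection, listed in both genotypes. Trans contacts made up 90.4% of the R320* connections of BTRC RNA and 12.8% of those of SUGCT RNA, against 13.6% over all RNAs. Among 800 RNAs listed in both genotypes with any trans contact, BTRC was the 1 RNA with at most 2 trans contacts in WT and at least 50 in R320*; 0 had the opposite pattern. These limits were set after seeing BTRC's numbers and support nothing further.

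The connections that BTRC RNA had in WT lay within or near its own gene and at MALAT1. The local one, to an enhancer inside BTRC (101445352 to 101455724), scored 1.58 in WT and 1.53 in R320*. Beside the gene lies DPCD, a gene for a protein linked to ciliated cells, and its promoter scored 1.46 in WT and 1.47 in R320*. A DPCD enhancer 17.4 kb from BTRC had 1.31 in WT and 1.32 in R320*. The enhancer between these genes, 8.82 kb from BTRC, had 1.70 and 1.68. These 4 connections barely differed between genotypes, the local one most (R320* minus WT, -0.0455). An enhancer 303 kb away near AL133215.2 had 1.21 in WT and 1.67 in R320*, the largest difference among the 7. The promoter of the nuclear speckle RNA gene MALAT1 on chromosome 11 had 1.48 and 1.83, and the enhancer beside it 1.24 and 1.40. The median difference over the 7 (R320* minus WT) was 0.0165 (SD 0.200), against 0.0394 (SD 0.247) over all 52089 shared connections.

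The 4 cis contacts gained by BTRC RNA formed 1 cluster on the side of the gene away from DPCD, 61.8 to 321 kb away. They were a promoter and an enhancer at SFXN3, a mitochondrial serine transporter gene (scores of 1.25 and 1.22), the KAZALD1 promoter (1.28) and an enhancer near AL133387.1 (1.35). All 4 lay close to the listing minimum. The enhancer near AL133215.2, already listed in WT, lies between the SFXN3 and KAZALD1 elements.

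The R320*-only scores of BTRC RNA were low: the median was 1.40 (SD 0.212, range 1.202 to 2.09), and 27 of the 87 (31.0%) reached 1.5. Over all R320*-only connections the median was 1.52, and 52.7% reached 1.5. The lowest listed values of BTRC RNA, 1.202 at an ABL1 enhancer and 1.203 at a PPM1F enhancer, lay at the edge of the list. For a score near 1.2, a listing in 1 genotype can rest on a small difference.

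**Figure D2:**
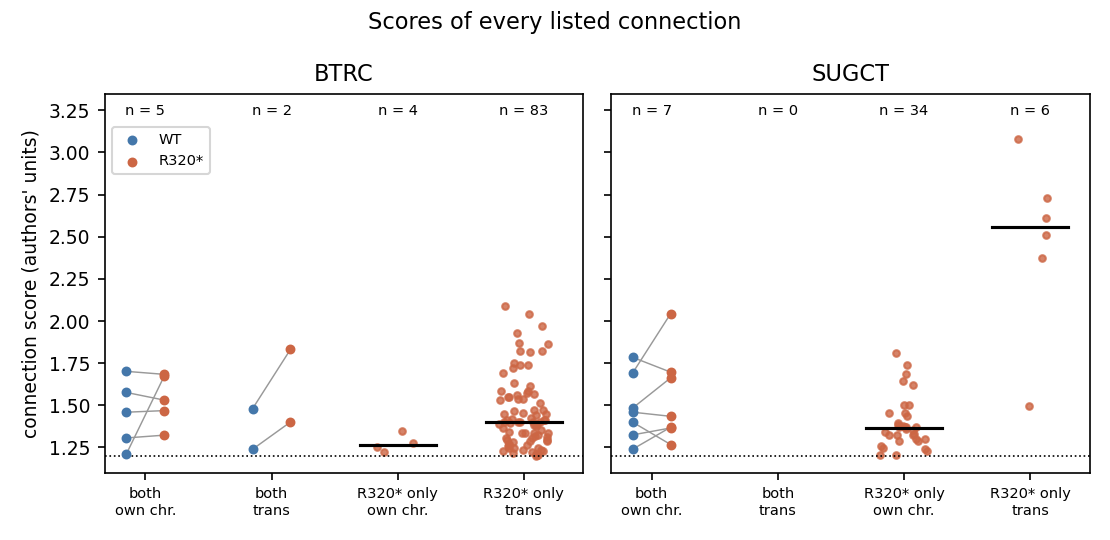
Score of every listed connection of BTRC RNA (left) and SUGCT RNA (right), on the vertical axis in the authors' units; connections in both genotypes are joined pairs (WT blue, R320* orange), R320*-only ones are single points with a black line at the median, and the dotted line is the minimum of 1.2. The 6 R320*-only trans contacts of SUGCT RNA have a median of 2.56, against 1.40 for the 83 of BTRC RNA.

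The 83 gained trans contacts of BTRC RNA lay on 15 chromosomes, most on chromosome 22 (17), 7 (15), 1 (13) and 6 (13). Chromosome 22 thus took 20.5% of them, against 8.18% of the R320*-only trans contacts of all other RNAs and 2.09% of all elements. Chromosome 7 took 18.1% against 8.86%, chromosome 6 15.7% against 10.4%, and chromosome 1 15.7% against 16.3%. No gained trans contact lay on 7 chromosomes (4, 14, 17, 18, 20, 21 and X), which took 13.7% of those of other RNAs. Of 120 RNAs from outside chromosome 22 with at least 10 such contacts, 20 had a larger share on chromosome 22 than BTRC.

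**Figure D3:**
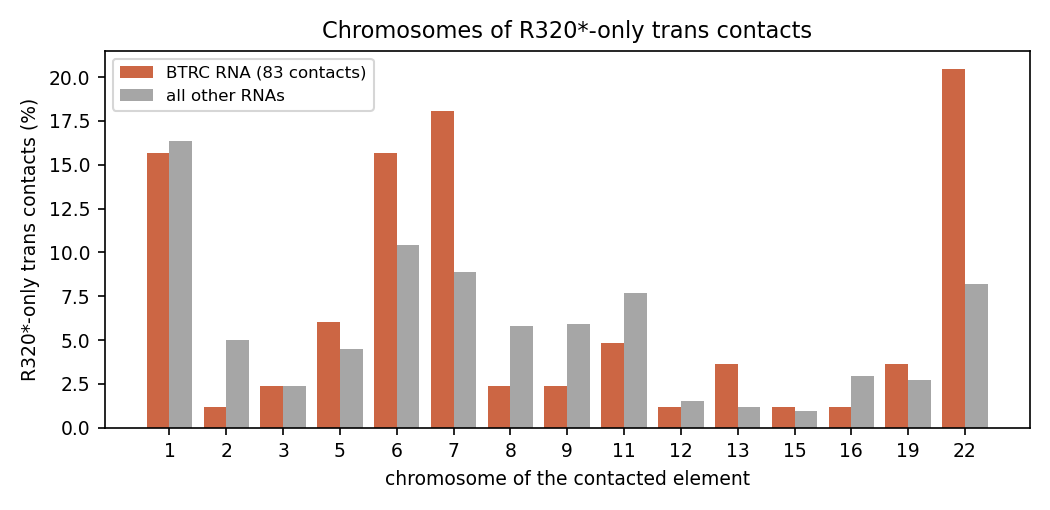
Percent of R320*-only trans contacts (vertical axis) by chromosome of the element (horizontal axis), for BTRC RNA (orange, 83 contacts) and all other RNAs (grey). Chromosomes 22 (20.5% and 8.18%) and 7 (18.1% and 8.86%) show the widest gaps; chromosomes without a BTRC contact are left out.

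Joined within 1 Mb, the 87 R320*-only contacts of BTRC RNA came to 46 places: 27 single elements, 12 pairs and 7 clusters of 3 or more. Elements of a cluster are neighbours and are not independent. The widest clusters were on chromosome 22. One of 10 contacts (21700944 to 23281990) ran from YPEL1 over PPM1F, VPREB1, PRAME and RSPH14 to BCR. The other, of 7 contacts (19428896 to 20512562), ran over HIRA, a histone chaperone gene, TBX1, RANBP1, ZDHHC8 and MED15, a Mediator subunit gene. Only part of each stretch was contacted: 10 of 66 listed elements (15.2%) in the first and 7 of 60 (11.7%) in the second.

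The remaining clusters of BTRC RNA were shorter. On chromosome 7, 5 of 7 elements in 87.9 kb near AC087071.1 and SSMEM1 were contacted (median score 1.54). On chromosome 13 all 3 elements at MIR17HG, host of a microRNA cluster that promotes growth, were contacted, with scores of 1.34, 1.72 and 1.97. On chromosome 5 all 3 elements at IRF1, an interferon-response factor gene, and at its neighbour AC116366.3 were contacted (1.75, 1.44 and 1.32). A chromosome 1 cluster held 4 of 28 elements, at TMEM79, RRNAD1, MRPL24 and PRCC (1.38 to 1.41). Adjoining pairs included COX20 and HNRNPU (1.74 each), both elements at HBP1, a repressor of cell cycle genes (1.87 and 1.82), and CUL7 with MRPL2 (1.47 and 1.45).

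The gained contacts of BTRC RNA with the highest scores, taken 1 per cluster, included a promoter of AC087071.1 (chromosome 7, 130141675 to 130142319, score 2.09), an enhancer inside ZDHHC8 (chromosome 22, 20137649 to 20138570, 2.04), the MIR17HG enhancer (chromosome 13, 91368940 to 91369879, 1.97) and the HBP1 promoter (chromosome 7, 107166945 to 107170936, 1.87). ABL1 on chromosome 9, the partner of BCR in the fusion, had 1 contacted element (1.202). BCR itself had 2, its promoter (1.45) and an enhancer inside the gene (1.25).

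Enhancers made up 53 of the 87 R320*-only contacts of BTRC RNA (60.9%) and promoters 34. This is close to the 65.1% enhancers among all R320*-only connections and the 63.4% among the trans ones. The elements lay in or at a gene in 66 cases (75.9%), belonged to 71 nearest genes and had a median length of 3057 bp. The share in or at a gene was 70.1% over all R320*-only connections. It was 76.3% over the trans ones, the kind that made up 83 of the 87 contacts here, so BTRC RNA did not stand out. In 37 cases (42.5%) the nearest gene was itself an RNA of the table, against 37.7% of all R320*-only trans contacts and 27.7% of all elements.

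The elements that BTRC RNA gained already met many RNAs in WT. The median was 8 other RNAs in WT and 6 in R320* (range 0 to 123 in WT), and 8 and 7 at the 83 trans ones. It was 4 and 4 over all R320*-only trans contacts and 2 and 2 over all elements. At 43 of the 87 elements fewer other RNAs were listed in R320* than in WT, at 31 more and at 13 the same number. That is 49.4% with fewer and 35.6% with more, or 50.6% and 33.7% at the trans ones. All R320*-only trans connections had 30.4% with fewer and 44.1% with more, and all elements 32.4% and 36.6%. No test was made of this difference, and elements of a cluster are not independent. The element with most was a promoter near AP000769.3 on chromosome 11, just beside the MALAT1 promoter element, with 123 in WT and 121 in R320*. Other RNAs' shared connections at these 87 elements differed by a median of 0.0310 (SD 0.280, 567 connections), against 0.0394 in the whole table. With 1 element per cluster the median number of other RNAs was 5 in WT and 5 in R320*.

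By Jaccard index (shared elements over the union of both lists), the RNAs most like BTRC in R320* were DGCR2 (10 shared, 10.6% of BTRC's list and 17.2% of its own; index 0.0704), ABL1 (19, 20.2% and 9.31%; 0.0681) and ITPR3 (7, 7.45% and 33.3%; 0.0648). All 3 indices are small. At the 87 gained elements DGCR2 RNA, from chromosome 22, was listed in both genotypes at 10, and ABL1 RNA in both at 18 and in R320* only at 1. ITPR3, a calcium channel gene on chromosome 6, differed: its RNA had 10 connections in WT and 21 in R320*, and met 5 of the 87 elements, in R320* only. By number shared, RNAs with long lists led, MALAT1 (35, 37.2% and 4.94%), NEAT1 (27, 28.7% and 2.38%) and LMAN1 (25, 26.6% and 5.42%). MALAT1 RNA was listed in both genotypes at 27 of the 87, in R320* only at 6 and in WT only at 5. In WT the 7 BTRC elements were met most by OGA (4) and GBF1 (3), both neighbours on chromosome 10.

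RNAs of genes beside BTRC had similar numbers in both genotypes, SUFU apart. Of 7 listed RNAs within 2 Mb, 3 had more connections in R320* and 4 fewer, SUFU with 17 in WT and 0 in R320*. The 6 neighbours listed in both genotypes had log2 ratios between -0.16 and 0.16. Over all 2137 RNAs listed in both, 58.2% had more connections in R320* and 33.6% fewer. OGA, which removes the sugar mark O-GlcNAc from proteins, had 29 and 26 connections, and GBF1, a Golgi transport factor gene, 49 and 54. Trans contacts of the 7 summed to 33 in WT and 34 in R320*, nearly all of KCNIP2 (32 and 33), and 0 of them lay on chromosome 22.

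SUGCT RNA had all its WT contacts on chromosome 7. Its local enhancer inside the gene (40552059 to 40552751) scored 1.78 in WT and 1.70 in R320*. Near CDK13, a kinase gene of transcription elongation, the promoter had 1.46 and 1.43 and the enhancer 1.32 and 1.37. The RALA enhancer, at a small GTPase gene, had 1.40 and 1.27. On the other side of SUGCT lie the proteasome subunit gene PSMA2 and the mitochondrial ribosome gene MRPL32. The PSMA2 promoter had 1.48 and 1.66, its enhancer 1.69 and 2.04, and the MRPL32 enhancer 1.24 and 1.37. These scores went both ways, with a median difference of 0.0409 (SD 0.168, 7 connections). The 1 contact listed in WT only, at the CDCA7L promoter 18.2 Mb away, had 1.25.

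The 34 cis contacts gained by SUGCT RNA lay on both sides of the gene, 20 below and 14 above it in coordinate. Their distance from the gene ran from 0.401 to 76.0 Mb, with a median of 2.54 Mb; the 6 shared ones lay at 0.177 to 1.90 Mb. At least 1 Mb away were 29 of 34 (85.3%), against 52.9% of the 21710 R320*-only cis connections of RNAs with a known position. For those RNAs the share was 51.2% of WT-only and 17.5% of shared cis connections. Connections listed in 1 genotype alone thus lay farther out than shared ones, whichever the genotype. Scores were low, with a median of 1.37 (SD 0.151, range 1.21 to 1.81), and 7 of 34 reached 1.5.

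**Figure D4:**
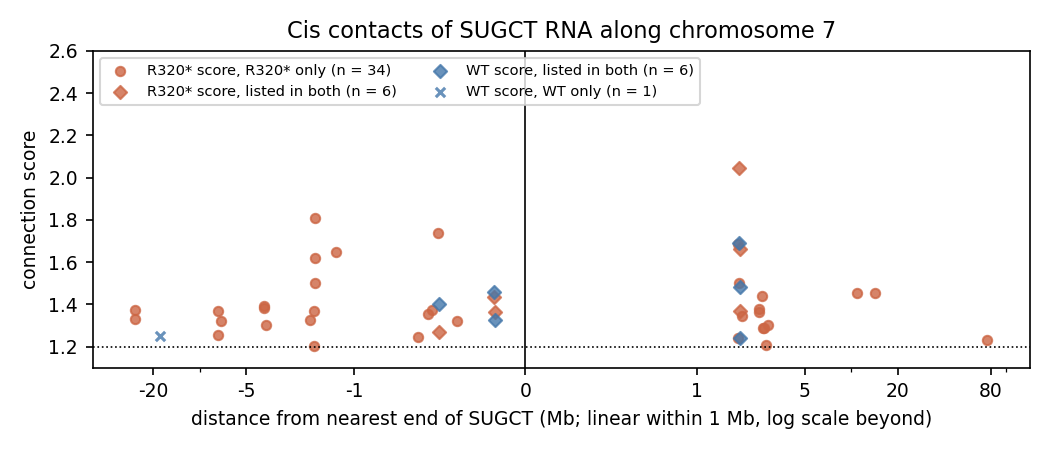
Score (vertical axis, authors' units) of each cis connection of SUGCT RNA against distance from the nearest end of the gene (horizontal axis, Mb, linear within 1 Mb and log beyond; negative values lie at lower coordinates). Shared contacts (diamonds) stay within 1.90 Mb, R320*-only ones (orange circles) reach 76.0 Mb, and the WT-only one (cross) lies 18.2 Mb away. The dotted line is the minimum of 1.2.

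These cis contacts formed 8 places. The largest held 12 contacts from STARD3NL to LINC00265 (38215807 to 39733888), 12 of 27 listed elements (44.4%). In it, 3 elements at TRG-AS1, inside the T-cell receptor gamma locus, had 1.81, 1.62 and 1.501. The RALA promoter had 1.74, while the RALA enhancer next to it was listed in both genotypes. The second held 11 contacts from AC010132.4 over C7orf25, STK17A, COA1 and BLVRA, a biliverdin reductase gene, to UBE2D4 (42888444 to 43930571), with a highest score of 1.69. Clusters of 3 lay at LSM5, AVL9 and KBTBD2 and at EEPD1 and ANLN, and a pair at the transcription factor gene ETV1 (1.37 and 1.33). Single elements at AC079763.1 (1.46), LANCL2 (1.45) and ST7 (1.23) lay farthest along the chromosome above SUGCT.

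The 6 trans contacts of SUGCT RNA all lay on chromosome 22, and 5 of them had its highest scores. At 4 of 4 listed elements between 19679874 and 19709641, near AC000067.1 and the septin gene SEPT5, the scores were 2.61, 2.73, 3.08 and 1.496. At 2 of 2 elements at UBE2L3, a ubiquitin-conjugating enzyme gene, and YDJC (21618861 to 21633858) they were 2.38 and 2.51. In WT none of the 6 was listed for SUGCT RNA. Their median of 2.56 lay above the 1.52 of all R320*-only trans contacts, of which 19.7% reached 2; here 5 of 6 did. High scores were not particular to SUGCT RNA in the chromosome 22 stretch described below. Among other RNAs not listed there in WT, WASF2 RNA reached 3.79 and MCPH1 RNA 3.33, while PVT1 RNA reached only 1.61. The 6 elements form only 2 clusters, and their contacts are not independent.

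BTRC and SUGCT RNA shared 0 elements, but their chromosome 22 contacts fell in 1 stretch of 3.85 Mb ending inside BCR (19428896 to 23281990). This stretch holds 177 listed elements and met many trans RNAs in both genotypes: 1323 connections of 163 RNAs in WT and 1249 of 161 in R320*. The 532 elements on the rest of chromosome 22 had 142 and 160 trans connections. ABL1 RNA led the stretch with 117 and 118, and BTRC ranked 16 of the RNAs by R320* number. Trans here follows reference chromosomes, whereas the fusion in K562 joins BCR to ABL1. The contacts of ABL1 RNA in this stretch thus need not be between separate chromosomes. BTRC (0 and 17) and SUGCT (0 and 6) were the 2 RNAs with 0 in WT and at least 6 in R320*; 8 RNAs had the opposite pattern. The stretch and the limit of 6 were set from these contacts, so these numbers describe the data and support nothing.

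**Figure D5:**
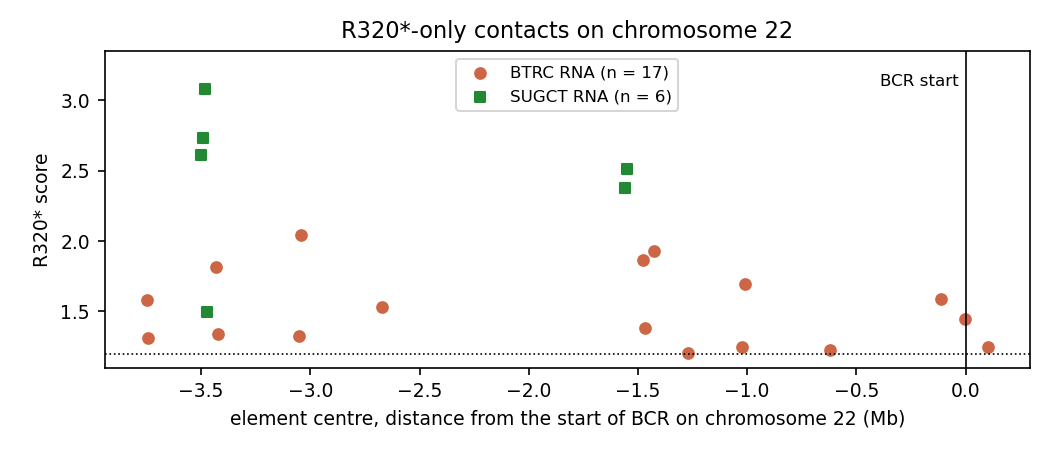
R320* score (vertical axis, authors' units) of the chromosome 22 contacts of BTRC RNA (circles, 17) and SUGCT RNA (squares, 6) against the distance of the element's centre from the start of BCR (horizontal axis, Mb); the dotted line is the minimum of 1.2. All but the contacts at BCR lie at lower coordinates than BCR, and 5 of the 6 SUGCT contacts score above every BTRC contact there.

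Enhancers made up 28 of the 40 R320*-only contacts of SUGCT RNA (70.0%, against 65.1% over all R320*-only connections) and promoters 12. In 23 cases (57.5%) the element lay in or at a gene, and there were 29 nearest genes. The share in or at a gene was 70.1% over all R320*-only connections and 67.1% over the cis ones. Other RNAs at these elements numbered a median of 5 in WT and 5 in R320*, with more in R320* at 20 of the 40, fewer at 13 (32.5%) and the same at 7 (17.5%). Over all R320*-only connections the medians were 3 and 3. There the shares with more, fewer and the same number were 41.5%, 26.4% and 32.0%. For the 6 trans elements the medians were 12 and 14. Other RNAs' shared connections there had a median difference of 0.00572 (SD 0.231, 164 connections).

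By Jaccard index, RNAs of neighbouring genes on chromosome 7 were most like SUGCT in R320*. CDK13 RNA met 27 of its 47 elements (57.4%, and 42.9% of the CDK13 list; index 0.325) and RALA RNA 15 (31.9% and 62.5%; 0.268). At the 40 gained elements CDK13 RNA was listed in both genotypes at 15, in R320* only at 6 and in WT only at 1. CDK13 RNA thus met many of these places in WT already, while RALA RNA was in both at 4 and in R320* only at 7. By number shared, AC004936.1 (26) and COA1 (20), also from chromosome 7, followed CDK13. AC004936.1 RNA was in both genotypes at 7 of the 40, in R320* only at 14 and in WT only at 1. COA1 RNA was in both at 13, in R320* only at 1 and in WT only at 3.

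Of the 5 listed RNAs within 2 Mb of SUGCT, 4 had more connections in R320* and 1 fewer, with a median log2 ratio of 0.20 against 0.09 over the 2137 RNAs listed in both genotypes. Of those 2137 RNAs, 58.2% had more and 33.6% fewer. RALA had 14 and 24 (0.78), CDK13 55 and 63, STARD3NL 13 and 14, and the vesicle-sorting gene VPS41 37 and 33. Trans contacts of the 5 summed to 5 in WT and 8 in R320*, with 0 and 4 for STARD3NL and 2 and 0 for VPS41. None of the 5 had a chromosome 22 trans contact in either genotype.

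Few other RNAs of the pathways were listed. Of 34 genes around the SCF ligase, 10 besides BTRC were listed: 2 had more connections in R320*, 5 fewer, 2 the same number and SKP2 was in R320* only (8). The median log2 ratio was -0.10, and 0 of them had 2-fold more in R320*. Of the 2137 RNAs listed in both genotypes 72 did (3.37%), with a median of 0.09, so 0 in so short a list is near the background. Among those 2137, 58.2% had more, 33.6% fewer and 8.14% the same number. Both pathway lists are too short to show a lean either way. FBXW8 had 40 and 22 connections, CTNNB1, the beta-catenin gene, 17 and 24, FBXO11 48 and 37 and RASSF3 15 and 12. FBXW11, the paralog of BTRC, had 42 and 38, and the scaffold gene CUL1 59 and 66. Of 23 genes of glutarate and lysine breakdown, 3 besides SUGCT were listed: OGDH with 47 and 52, DLD with 31 and 32, and ACADS with 4 and 0.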

How the data were processed

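GRID-seq libraries of K562 cells, 2 per genotype, were crosslinked first with DSG (2 mM, 45 minutes), then with formaldehyde (3%, 10 minutes), per the labels' protocols. The submitters' processing notes name cutadapt 1.12, BWA, bedtools and hg38. The authors deposited 1 score per connection and genotype, and a difference score that equals R320* minus WT within 1e-05. How libraries were combined, how the score was made and its scale: not given in the sources used here. Genotypes came from the sample titles. The rule for named items took both members, every connection listed in WT, the 5 highest R320*-only contacts on different clusters (1 Mb single linkage), every cluster of at least 3, the 3 RNAs with the highest Jaccard index in R320* and up to 4 genes per list by size of change; other names, among them RNAs ranked by number shared, pairs, single elements, FBXW11, CUL1 and the printed promoters, were chosen after their values were seen. Members and lists were chosen with earlier results of these data known. Gene positions and promoters came from RefSeq GRCh38.p14; distance ran from the nearest end of the gene. Coordinates are 1-based; element starts in the file were taken as 0-based. Counting and clustering (Python 3.11.15, pandas 2.3.3) were tested on simulated data. Alternatives changed the merging distance, score minimum, element type and length, chromosomes and the minimum of 25 connections. Some items covered by the rule for named items are not reported here.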

Additional observations from a re-analysis of the deposited data

How the results depend on the processing

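With each choice changed in turn, BTRC and SUGCT RNA had more connections in R320* throughout. Both were chosen for these numbers, and most alternatives are parts of the same contacts. That direction was therefore largely fixed in advance and supports nothing further. The log2 ratio of BTRC (3.75) became 4.52 with contacts merged within 1 Mb (2 and 46 places), 0.85 on its own chromosome alone (5 and 9) and 5.41 on other chromosomes alone. That of SUGCT (2.55) became 1.74 when merged (3 and 10 places). Leaving out chromosomes 9, 13 and 22, an alternative added after seeing the data, gave 3.36 and 2.36. With a score of at least 1.5, gained places fell to 16 for BTRC and 4 for SUGCT. With a score of at least 2, BTRC had 0 in WT and 2 in R320* and SUGCT 0 and 6, so no ratio could be given, nor for SUGCT on other chromosomes alone or without chromosome 7. The median number of other RNAs at BTRC's elements in WT was 8, and 5 with 1 element per cluster. The median difference of BTRC's shared scores turned from 0.0165 to -0.0229 when centred on the table. RNAs with at least 2-fold more connections numbered 8 of 1293, or 72 of 2137 without a minimum. They numbered 42 with a mean of at least 10 and 4 with a mean of at least 50, in sets of other sizes. When merged they numbered 202 of the same 1293. A 2-fold rise was thus far more common in merged places, which is the background for the merged ratios of BTRC and SUGCT. No paired analysis was possible because the table holds 1 pooled value per genotype; leaving out single libraries was not run for the same reason. Depth is unknown, and a score near 1.2 limits what a listing in 1 genotype shows.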

Other observations

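The BTRC and SUGCT genes were also contacted as places. The BTRC promoter met the RNA of OGA with 1.36 in WT and 1.62 in R320*, and that of GBF1 in R320* only (1.503). The enhancer inside BTRC met GBF1 RNA with 1.29 and 1.54 and OGA RNA with 1.41 and 1.35. NT5C2 RNA was listed there in R320* only (1.31), and MALAT1 RNA met another enhancer at BTRC in WT only (1.26). The enhancer inside SUGCT met RALA RNA with 1.58 and 2.03, COA1 RNA with 1.38 and 1.72 and CDK13 RNA with 1.57 and 1.28. AC004949.1 RNA had 1.322 and 1.302 there, and AC004936.1 RNA was listed in WT only (1.32). A second SUGCT enhancer met VPS41 RNA in WT only (1.66). Every RNA met at either gene, MALAT1 apart, came from the gene's own chromosome.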
